A study of Mus musculus with 9 samples.

Results

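Aminoacyl-tRNA synthetases attach each amino acid to its transfer RNA, and 39 genes of this machinery were followed in mouse pancreatic stellate cells. The genes were taken from the deposited count table by symbol. They comprised 20 cytosolic synthetase subunits, 3 non-enzymatic scaffold proteins of the multisynthetase complex and 16 mitochondrial synthetases. All 39 were present among the 17156 genes of the table, and all 39 passed the low-count filter that left 13613 genes for testing.

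Pancreatic stellate cells are fibroblast-like cells of the pancreas that produce matrix in injury and cancer, here as lines of wild-type cells from C57BL/6J mice. The cells were kept for 4 days in control medium, DMEM with 5% FBS labelled MG-CM, in medium conditioned by pancreatic tumour organoids (CM), or in CM with 500 nM AZD1480, an inhibitor of JAK kinases (CM-JAKi). Each group held 3 libraries. Replicate 1 was made from the line PSC4, replicate 2 from PSC5-I and replicate 3 from PSC5-II, and each replicate number had its own source of conditioned medium, so line and source cannot be told apart. No group received the inhibitor in control medium, and the serum content of CM is not given apart from that of the control. The replicates were separate cultures, and the main fit did not pair them by replicate number. Its p-values measure the spread between these cultures, which includes their differences of line and medium source. A fit with the replicate number as a block, which does pair them, is given where its calls differ.

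Most synthetases of the cytosol and of the mitochondrion are products of separate nuclear genes, while Gars and Kars each serve both compartments. In the cytosol 8 of the synthetase genes followed here encode enzymes of the multisynthetase complex, which is held together by Aimp1, Aimp2 and Eef1e1. Several cytosolic synthetase genes are known targets of ATF4, a transcription factor of the amino acid response that binds composite C/EBP-ATF elements with C/EBP partners. Wars, the enzyme for tryptophan, is known as an interferon-induced gene.

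The promoters of 30 of the 39 genes could be matched in the RefSeq table of GRCm38.p6, each from 250 bases before to 50 bases after the annotated start. A search of both strands for the C/EBP-ATF letters TGATGNAA found matches in 5 cytosolic synthetase genes, Aars, Gars, Iars, Tars and Yars. These stretches are shown because all 5 genes were lower with the inhibitor in the comparison given below. Each is printed 5′ to 3′ on the strand that reads TGATGNAA, with the match in capitals.
Aars: tcagagcgctcTGATGAAAagtgacccgct
Gars: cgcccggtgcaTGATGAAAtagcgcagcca
Iars: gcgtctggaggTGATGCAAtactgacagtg
Tars: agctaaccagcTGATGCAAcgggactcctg
Yars: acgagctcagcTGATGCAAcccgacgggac
The Aars stretch lies at chr8:111033840-111033869 (minus strand printed, gene on the plus strand), with its match at 10 to 17 relative to the start. The Gars stretch lies at chr6:55037960-55037989 (minus strand printed, gene on the plus strand), with its match at -30 to -23. The Tars stretch lies at chr15:11399655-11399684 (plus strand printed, gene on the minus strand), with its match at -15 to -8. In Iars, at chr13:49682126-49682155 (minus strand printed, gene on the plus strand), and in Yars, at chr4:129189895-129189924 (plus strand, as the gene), the matches began 8 and 4 bases after the start. The wider upstream sequence of Gars and Tars, whose printed match lies before the start, is given for context on the strand of the gene, so the capitals show the reverse complement of the letters searched.
Gars, chr6:55037751-55038000, plus strand: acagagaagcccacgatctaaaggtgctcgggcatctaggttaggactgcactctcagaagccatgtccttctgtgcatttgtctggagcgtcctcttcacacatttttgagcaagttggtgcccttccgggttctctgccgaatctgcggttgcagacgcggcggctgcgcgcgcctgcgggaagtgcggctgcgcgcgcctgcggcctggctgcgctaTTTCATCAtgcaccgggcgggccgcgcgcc
Tars, chr15:11399659-11399908, minus strand: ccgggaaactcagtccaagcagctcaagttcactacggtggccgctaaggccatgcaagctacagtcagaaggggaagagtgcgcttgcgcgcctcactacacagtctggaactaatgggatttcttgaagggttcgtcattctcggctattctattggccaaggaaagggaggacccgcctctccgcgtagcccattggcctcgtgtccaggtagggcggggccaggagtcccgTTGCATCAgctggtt

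Library totals ran from 25625806 to 32466018 counts. All 12 stellate and fibroblast markers passed the low-count filter, with summed levels of 7199 to 8526 CPM (counts scaled to the TMM-adjusted library total) in MG-CM, 6358 to 9593 in CM and 9341 to 10026 in CM-JAKi. Des, the stellate filament gene desmin, did not exceed 3.32 CPM, Lum was as low as 3.62, 5.31 and 5.48 CPM in the replicate 2 libraries, and Acta2, smooth muscle actin, was at 8.73 CPM in CM replicate 1 against 103 in the other CM libraries. The sum of 10 ductal markers was 34.6 to 49.2 CPM in MG-CM, 34.5 to 37.1 in CM and 28.6 to 45.2 in CM-JAKi. It was held mostly by Sox9, at 12.8 to 26.1 CPM, Muc1, at 1.97 to 16.5, and Krt19, at 0.765 to 25.1 with the highest value in CM-JAKi replicate 3, while the defining epithelial markers Epcam and Cdh1 stayed at or below 0.180 and 0.209 CPM. Also near 0 were the leukocyte marker Ptprc, at or below 0.0387, and the summed acinar markers, at or below 0.139. Of the leukocyte markers, whose sum was 22.8 to 34.9 CPM in MG-CM, 34.0 to 118 in CM and 15.9 to 32.6 in CM-JAKi, Cd14 held most, with 114 CPM in CM replicate 1. The endothelial sum was 4.85 to 6.10 CPM in MG-CM, 2.17 to 2.64 in CM and 7.97 to 15.7 in CM-JAKi. Of this sum Emcn held 6.31, 12.8 and 3.52 CPM in CM-JAKi and at most 0.0328 in CM. Kdr and Tek did not exceed 2.47 and 2.90 CPM in any library, nor Pecam1 and Cdh5 0.527 and 0.521. The part of other cell types in the results was not tested, and in bulk RNA fewer cells of a type and less RNA per cell cannot be told apart.

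**Figure D1:**
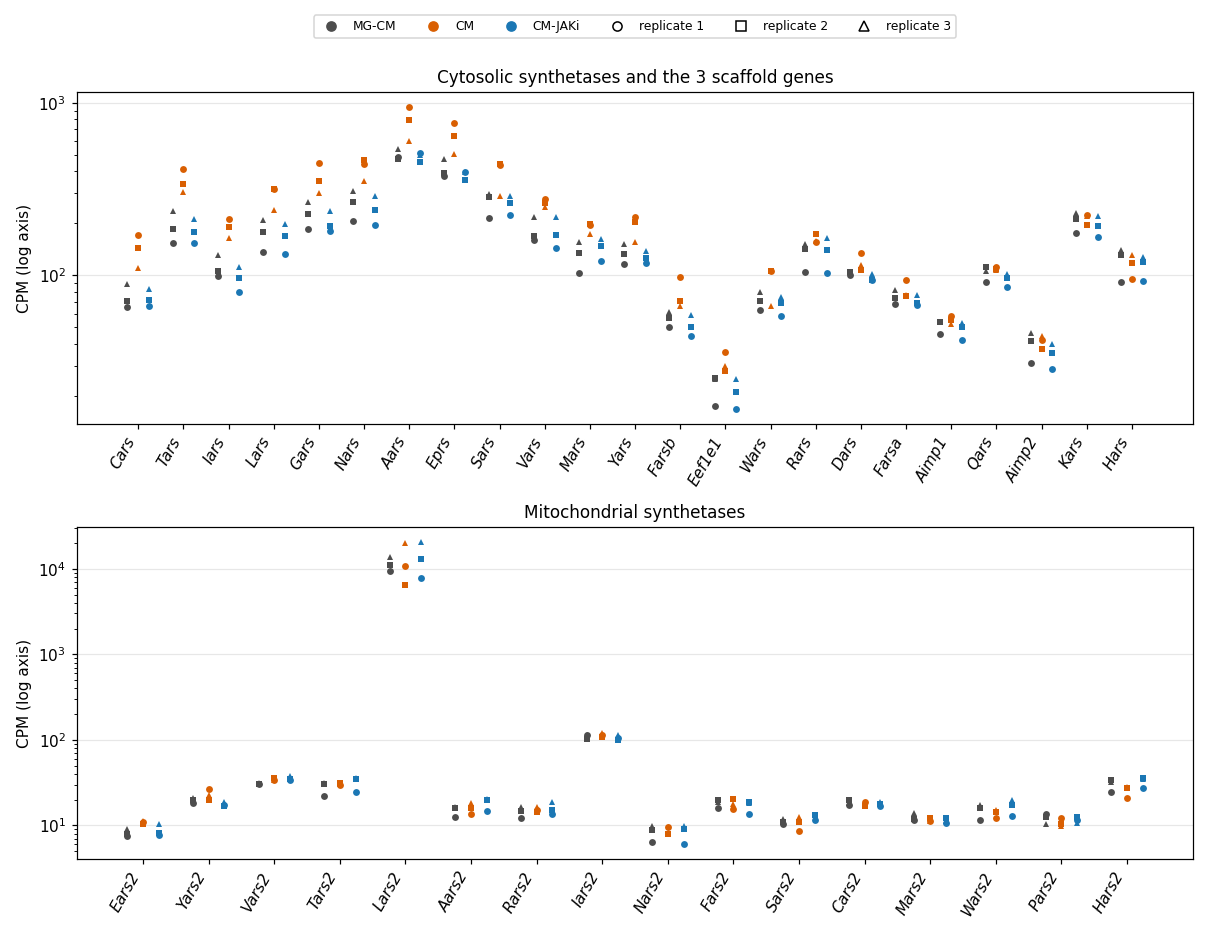
Level of each of the 39 genes in each library, in CPM on a log axis, with colour for the group and marker shape for the replicate. Genes are ordered by their log2 fold change in CM against MG-CM. At the left of the upper panel the CM points lie above both other groups, and in the lower panel the groups lie close together. Levels are not scaled by gene length, so heights compare libraries and not genes.

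In conditioned medium 7 of the 20 cytosolic synthetases rose against control medium, against 4.85% of all genes tested, and 0 fell, against 5.39%. The 7 were Cars, Tars, Iars, Lars, Gars, Aars and Eprs, and their levels in CM were 1.54 to 1.89 times those in MG-CM. Of the 3 scaffold genes and the 16 mitochondrial synthetases 0 changed in edgeR's quasi-likelihood test, against 10.2% of all genes in either direction. At an unadjusted p under 0.05 there were 13 cytosolic, 1 scaffold and 2 mitochondrial genes, all higher, against 28.3% of all genes in either direction, and DESeq2 called 13 cytosolic genes higher, against 8.62% of all genes tested, and 0 of the scaffold or mitochondrial genes. The median log2 fold change was 0.53 in the cytosolic genes, 0.11 in the scaffold genes, 0.04 in the mitochondrial genes and 0.01 over all genes tested.

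Values by library are given below in the order of replicates 1, 2 and 3. Cars, the enzyme for cysteine, had the largest change. Cars counted 65.9, 70.9 and 88.7 CPM in the MG-CM libraries, 172, 143 and 110.5 in CM and 66.8, 72.4 and 83.7 with the inhibitor. All CM libraries lay above all MG-CM libraries, and CM replicate 1 was the highest of the 9. The log2 fold change in CM against MG-CM was 0.92 ± 0.18 (SE, adjusted p = 0.0184).

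Tars and Iars, the enzymes for threonine and isoleucine, came next. Tars counted 154, 187 and 238 CPM in the MG-CM libraries, 415, 336 and 304 in CM and 154, 177 and 211 with the inhibitor. The CM libraries again lay above those of MG-CM, with a log2 fold change of 0.87 ± 0.19 (adjusted p = 0.0249). Iars counted 99.0, 106 and 131 CPM in the MG-CM libraries, 212, 189.7 and 165 in CM and 80.5, 96.4 and 112 with the inhibitor. Its CM libraries were likewise all the higher ones, and the log2 fold change was 0.75 ± 0.15 (adjusted p = 0.0223).

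Aars, which charges alanine tRNA, and Gars, which charges glycine tRNA in both the cytosol and mitochondria, rose as well. Aars counted 487, 474 and 541 CPM in the MG-CM libraries, 940.3, 793 and 603 in CM and 513, 453 and 500.1 with the inhibitor. Gars counted 185, 227 and 267 CPM in the MG-CM libraries, 448, 352 and 299 in CM and 180.5, 194 and 237 with the inhibitor. In both genes the groups CM and MG-CM did not overlap, although CM replicate 3 of Aars, at 603 CPM, stood close to MG-CM replicate 3 at 541. The log2 fold change was 0.64 ± 0.16 for Aars (adjusted p = 0.037) and 0.69 ± 0.19 for Gars (adjusted p = 0.0488).

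Eprs, a fused enzyme for glutamate and proline, and Lars, the leucine enzyme that also takes part in leucine sensing, are both in the multisynthetase complex. Eprs counted 375, 392 and 471 CPM in the MG-CM libraries, 767, 640.5 and 503 in CM and 395, 357 and 395 with the inhibitor. Lars counted 137, 178 and 210.1 CPM in the MG-CM libraries, 317, 316 and 239 in CM and 133, 168 and 198 with the inhibitor. CM lay above MG-CM without overlap in both. Their log2 fold changes were 0.63 ± 0.16 (adjusted p = 0.0415) and 0.73 ± 0.20 (adjusted p = 0.0496).

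Nars, Yars and Vars, the enzymes for asparagine, tyrosine and valine, did not pass the threshold. Nars counted 206, 267 and 309 CPM in the MG-CM libraries, 444, 467 and 349.9 in CM and 196, 239 and 289.6 with the inhibitor. Yars counted 117, 133 and 153 CPM in the MG-CM libraries, 218, 203 and 156 in CM and 118, 127 and 138 with the inhibitor. Vars counted 159, 168 and 218 CPM in the MG-CM libraries, 278, 263 and 248 in CM and 145, 170.4 and 217 with the inhibitor. In each the CM libraries lay above those of MG-CM, by the least in replicate 3. Log2 fold changes were 0.69 ± 0.19, 0.52 ± 0.15 and 0.53 ± 0.16 (adjusted p = 0.055, 0.0565 and 0.0735). With the replicate number as a block, Nars and Vars passed (adjusted p = 0.0293 and 0.0261), as did Mars, the methionine enzyme (0.027), while Yars did not (0.0502).

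The subunits of the cytosolic phenylalanine enzyme did not pass either. Farsa counted 68.1, 74.3 and 82.9 CPM in the MG-CM libraries, 94.4, 76.1 and 76.9 in CM and 67.3, 69.3 and 77.1 with the inhibitor. Farsb counted 50.0, 56.8 and 61.1 CPM in the MG-CM libraries, 98.2, 71.1 and 66.7 in CM and 44.5, 50.5 and 58.8 with the inhibitor. For Farsa, the alpha subunit, CM and MG-CM overlapped, while for Farsb, the beta subunit, they did not. The log2 fold changes were 0.13 ± 0.11 for Farsa (adjusted p = 0.486) and 0.49 ± 0.16 for Farsb (adjusted p = 0.0909).

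Wars is the interferon-induced enzyme. Wars counted 62.9, 70.8 and 80.0 CPM in the MG-CM libraries, 105, 106 and 66.5 in CM and 58.6, 69.3 and 75.5 with the inhibitor. CM replicates 1 and 2 were above every other library, but CM replicate 3 lay inside the MG-CM range. The log2 fold change of 0.38 ± 0.19 did not pass (adjusted p = 0.22), but without CM replicate 3 Wars was called higher in CM (adjusted p = 0.0442) and lower with the inhibitor (adjusted p = 0.0197). Of 20 interferon-stimulated genes tested in the same libraries 16 rose, against 4.85% of all genes, with a median log2 fold change of 1.62. A difference between Wars and that list was not tested.

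Kars and Qars, the lysine and glutamine enzymes of the complex, had CM libraries that overlapped those of MG-CM. Kars counted 177, 212 and 231 CPM in the MG-CM libraries, 224, 195 and 219.6 in CM and 166, 193 and 221 with the inhibitor. Qars counted 91.6, 112 and 107 CPM in the MG-CM libraries, 111, 109 and 107 in CM and 85.3, 96.3 and 102 with the inhibitor. Their log2 fold changes were 0.04 ± 0.13 and 0.08 ± 0.10 (adjusted p = 0.868 and 0.659), with 95% intervals of -0.26 to 0.35 and -0.15 to 0.30. Hars, for histidine, was the 1 cytosolic gene with a negative estimate (-0.07 ± 0.19, adjusted p = 0.848). The remaining cytosolic genes, Dars, Mars, Rars and Sars, had log2 fold changes of 0.21 to 0.55.

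Among scaffold genes Eef1e1 moved most. Eef1e1 counted 17.5, 25.4 and 25.3 CPM in the MG-CM libraries, 36.2, 28.0 and 30.0 in CM and 16.9, 21.2 and 25.1 with the inhibitor. Its CM libraries lay above those of MG-CM, with a log2 fold change of 0.47 ± 0.19 that did not pass (adjusted p = 0.148). Aimp1 counted 46.1, 53.9 and 53.5 CPM in the MG-CM libraries, 58.6, 55.0 and 52.5 in CM and 42.5, 50.2 and 53.1 with the inhibitor. Aimp2 counted 31.2, 41.8 and 46.6 CPM in the MG-CM libraries, 42.3, 37.3 and 44.4 in CM and 28.6, 35.8 and 40.1 with the inhibitor. For both genes CM overlapped MG-CM, and the log2 fold changes were 0.11 ± 0.11 and 0.05 ± 0.17 (adjusted p = 0.529 and 0.875).

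In all, CM lay above MG-CM without overlap in 14 of 20 cytosolic genes, against 16.0% of all genes tested, and in 2 of 16 mitochondrial genes, Ears2 and Vars2. Cars was not called without MG-CM replicate 1 or 2, Iars and Tars without these or CM replicate 1, and Aars, Eprs, Gars and Lars without any of the 6 libraries except CM replicate 3. Without MG-CM replicate 1 or without MG-CM replicate 2, 0 of the 23 cytosolic and scaffold genes were called, with 11 and 14 at an unadjusted p under 0.05. Over all genes 2.88% and 0.326% were called higher in these fits, so that without MG-CM replicate 2 few genes of any kind were called. Without CM replicate 1 there was 1 call, Cars, and without MG-CM replicate 3, CM replicate 2, CM-JAKi replicate 2 or CM-JAKi replicate 3 there were 3 each. Over all genes 2.24% were called higher without CM replicate 1, and 2.05%, 3.55%, 3.17% and 3.47% in the other fits, in that order. The log2 fold changes of the 7 genes stayed at 0.47 to 1.07 without each of the 6 libraries compared.

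**Figure D2:**
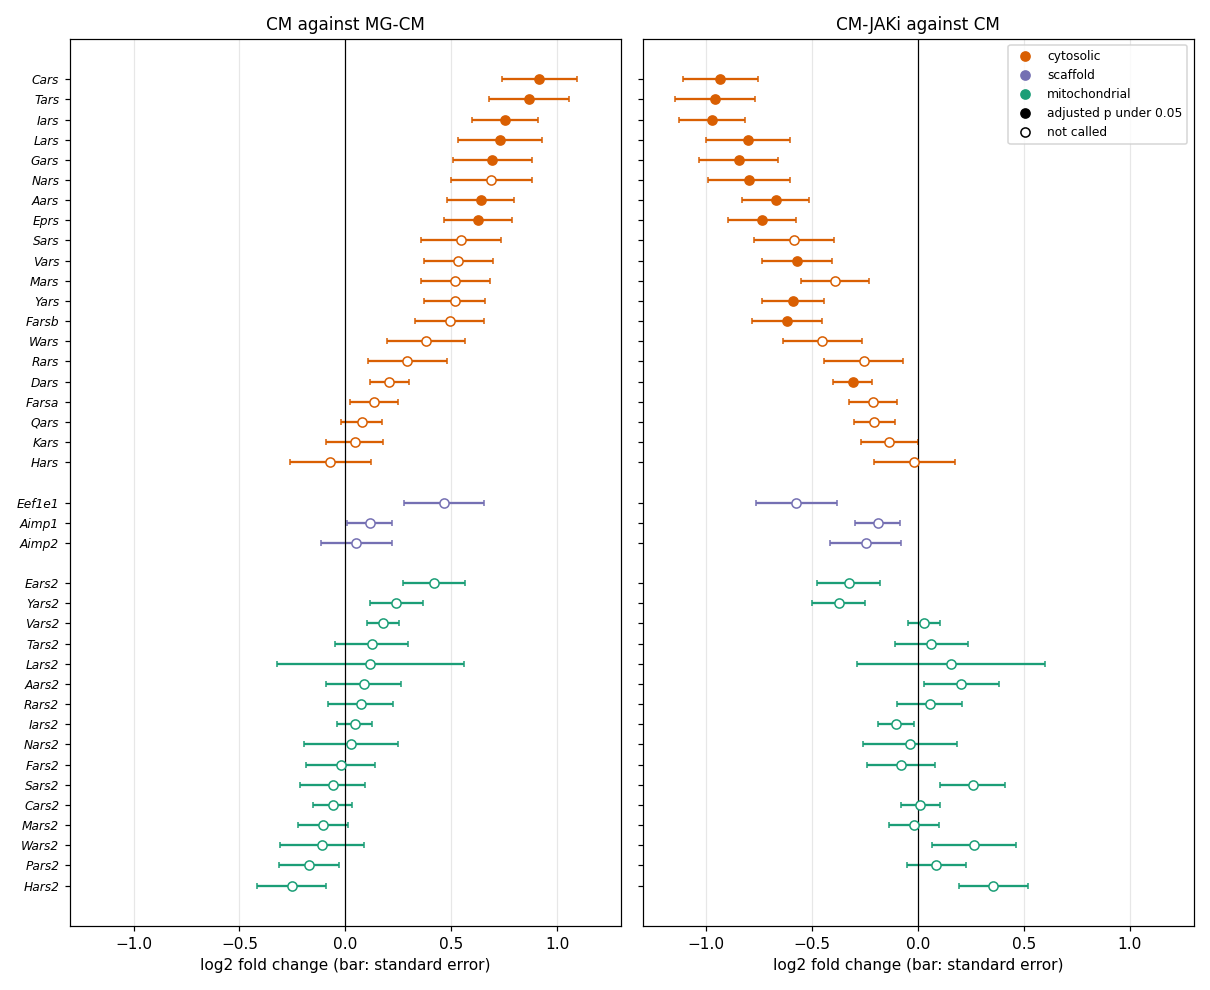
Log2 fold change of each gene in CM against MG-CM (left) and in CM-JAKi against CM (right), with bars for the standard error and filled points for an adjusted p under 0.05. Filled points are all cytosolic, 7 on the left and 12 on the right, and the 16 mitochondrial genes scatter around 0. Both panels use the same CM libraries.

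What the inhibitor changed in cells kept in conditioned medium was read from CM-JAKi against CM. It shares the CM libraries with the comparison above, so a chance deviation of CM would move both in opposite directions. With the inhibitor 12 of the 20 cytosolic synthetases fell, against 8.93% of all genes tested, and 0 rose, against 10.1%. Of the scaffold and mitochondrial genes 0 changed in edgeR's test, against 19.0% of all genes in either direction. At an unadjusted p under 0.05 there were 15 cytosolic, 1 scaffold and 1 mitochondrial gene, all lower, against 34.4% of all genes in either direction, and DESeq2 called 13, 1 and 1 genes of these classes lower, against 12.4% of all genes tested. The median log2 fold change was -0.59 in the cytosolic genes, -0.25 in the scaffold genes, 0.04 in the mitochondrial genes and 0.01 over all genes tested.

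The 7 genes that were higher in CM were all among the 12. Iars had the smallest p, with a log2 fold change of -0.97 ± 0.16 (adjusted p = 0.00535), and its CM-JAKi libraries were all below those of CM. Tars and Cars followed at -0.96 ± 0.19 and -0.93 ± 0.18 (adjusted p = 0.0109 and 0.00945). Iars, Tars and Cars remained called without each of the 6 libraries compared. Levels with the inhibitor were 0.509 to 0.524 times those in CM for these 3 genes.

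Gars, Lars, Eprs and Aars fell by 0.85 ± 0.19, 0.80 ± 0.20, 0.74 ± 0.16 and 0.67 ± 0.16 on the log2 scale (adjusted p = 0.0169, 0.0253, 0.0158 and 0.0209). In each the highest CM-JAKi library lay below the lowest CM library. Of the 6 libraries compared, Eprs and Gars lost their calls without CM-JAKi replicate 2, Aars without CM-JAKi replicate 2 or replicate 3, and Lars without either of replicates 1 and 2 of CM or CM-JAKi.

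Nars, Farsb, Yars, Vars and Dars were called in this comparison and not in the other. Their log2 fold changes were -0.80 ± 0.19, -0.62 ± 0.16, -0.59 ± 0.15, -0.57 ± 0.16 and -0.31 ± 0.09 (adjusted p = 0.0235, 0.0321, 0.0254, 0.0423 and 0.0473). Dars, the aspartate enzyme of the complex, had the smallest change of the 12. Dars counted 101, 104 and 105 CPM in the MG-CM libraries, 135, 108 and 116 in CM and 93.6, 93.7 and 102 with the inhibitor. Its CM-JAKi libraries stayed below those of CM, as did those of Nars, Farsb, Yars and Vars. Leaving out replicate 1 or 2 of CM or CM-JAKi ended the calls of Nars and Yars, CM replicate 1 or CM-JAKi replicate 1 or 2 that of Farsb, each library but CM-JAKi replicate 3 that of Vars, and each but CM replicate 2 that of Dars.

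Of the cytosolic genes that did not pass, Sars came nearest, at -0.59 ± 0.19 (adjusted p = 0.0611). Wars changed by -0.45 ± 0.19 and Mars by -0.39 ± 0.16 (adjusted p = 0.122 and 0.123). Farsa, Qars, Kars, Rars and Hars had estimates of -0.26 to -0.02. Eef1e1 changed by -0.58 ± 0.19 (adjusted p = 0.0654, or 0.0439 with the replicate block), and Aimp1 and Aimp2 by -0.19 ± 0.11 and -0.25 ± 0.17 (adjusted p = 0.238 and 0.333).

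CM-JAKi lay below CM without overlap in 15 of 20 cytosolic genes, against 18.3% of all genes tested, and in 2 of 16 mitochondrial genes. Without CM replicate 1 or CM-JAKi replicate 1 there were 6 cytosolic calls in place of 12, without CM replicate 2 there were 8, and without CM-JAKi replicate 2 there were 3. Over all genes 5.37%, 8.42%, 7.21% and 3.48% were called lower in these fits, in that order, against 8.93% in the main fit. Chosen after the values were known, a fit with all libraries of replicate 2 left out called 0 cytosolic or scaffold genes in either comparison (edgeR, with or without the replicate block), with 4 and 8 at an unadjusted p under 0.05 for CM against MG-CM without the block and with it, and 8 and 12 for CM-JAKi against CM. Over all genes these fits called 0.0440% higher in CM against MG-CM without the block and 1.78% with it, and 1.32% and 4.90% lower in CM-JAKi against CM, so few genes of any kind were called without the block. In CM against MG-CM 14.9% of all genes without the block and 26.0% with it had an unadjusted p under 0.05. In CM-JAKi against CM these shares were 19.5% and 31.7%.

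The inhibitor in conditioned medium was also set against control medium. Between CM-JAKi and MG-CM 0 of the 39 genes were called by edgeR, with or without the replicate block, or by DESeq2, against 1.01% of all genes tested (0.286% higher and 0.720% lower, or 1.85% and 2.40% with the block, and 3.68% in either direction by DESeq2), and 1 gene had an unadjusted p under 0.05, against 10.7% of all genes. The median log2 fold change was -0.08 in the cytosolic genes, 0.10 in the mitochondrial genes and 0.01 over all genes tested. Estimates were negative in 18 of 20 cytosolic genes, against 6656 of the 13613 genes tested. The cytosolic genes varied together between libraries, as given below, so their signs are not independent.

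The intervals leave room for moderate differences. The log2 fold change of Cars was -0.02 ± 0.17, with a 95% interval of -0.41 to 0.38. It was -0.09 ± 0.19 for Tars (-0.51 to 0.33), -0.22 ± 0.15 for Iars (-0.57 to 0.13) and -0.15 ± 0.19 for Gars (-0.57 to 0.27). Aimp2, Dars and Qars had estimates of -0.20 ± 0.17, -0.10 ± 0.09 and -0.13 ± 0.10.

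The smallest p in this comparison belonged to Vars2, the mitochondrial valine enzyme. Vars2 counted 30.7, 30.3 and 31.1 CPM in the MG-CM libraries, 33.9, 36.0 and 34.2 in CM and 33.8, 34.8 and 37.6 with the inhibitor. Its CM-JAKi libraries lay above those of MG-CM by 0.20 ± 0.08 on the log2 scale, which did not pass (adjusted p = 0.351). CM was also above MG-CM in Vars2, by 0.18 ± 0.08 (adjusted p = 0.167), without overlap. Aars2 followed, with 12.4, 15.9 and 16.6 CPM in MG-CM and 14.7, 19.8 and 20.5 in CM-JAKi, groups that overlapped (0.29 ± 0.18, adjusted p = 0.644).

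The classes are set side by side in their summed levels. The 20 cytosolic genes together held 3053, 3526 and 4035 CPM in the control libraries, 5857, 5301 and 4381 in CM and 3039, 3299 and 3761 with the inhibitor. All CM sums lay above all others, and CM replicate 3 was the nearest to the MG-CM range. The 15 mitochondrial genes without Lars2 held 328, 356 and 372 CPM in the control libraries, 352, 356 and 372 in CM and 326, 365 and 392 with the inhibitor. The groups of the mitochondrial sum overlapped throughout. The ratio of the cytosolic to the mitochondrial sum was 10.03 ± 0.768 (SD, n = 3) in MG-CM, 14.4 ± 2.46 in CM and 9.32 ± 0.270 in CM-JAKi.

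**Figure D3:**
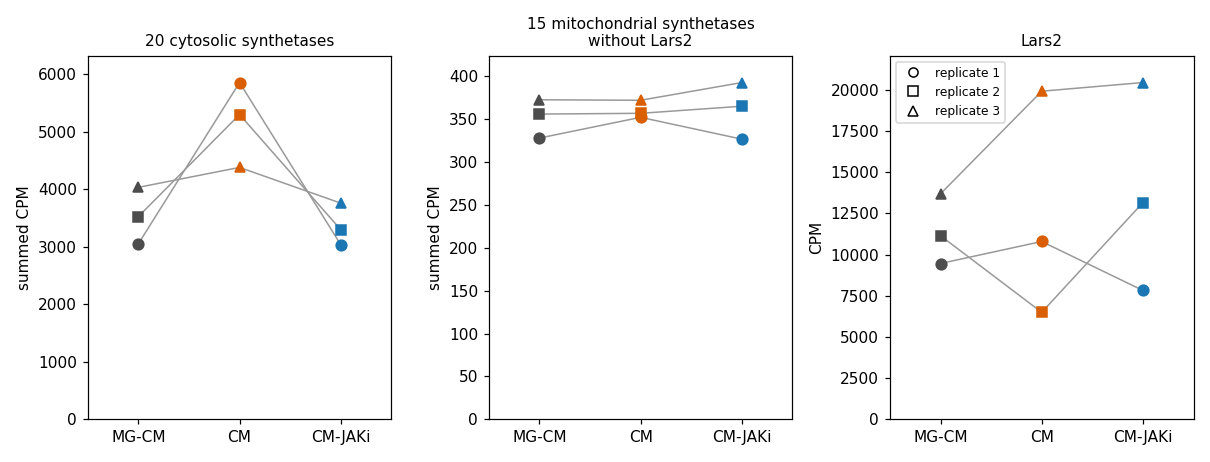
Summed CPM of the 20 cytosolic synthetases (left) and of 15 mitochondrial synthetases without Lars2 (middle), and CPM of Lars2 alone (right), by group. Lines join libraries of the same replicate number. The cytosolic sum peaks in CM at 4381 to 5857 CPM, the mitochondrial sum stays between 326 and 392, and Lars2 follows no common course.

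Enzymes of the same amino acid were then compared between the compartments, as a description of 17 pairs. In CM against MG-CM the log2 fold change of the cytosolic gene exceeded that of the mitochondrial gene in 17 of 17 pairs, by 0.16 for Farsa and Fars2 up to 0.98 for Cars and Cars2 (median 0.55). In CM-JAKi against CM it was the lower one in 17 of 17 pairs, with a median difference of -0.72 and a range of -1.02 to -0.13. In CM-JAKi against MG-CM the median difference was -0.16, and the cytosolic change was the lower one in 13 of 17. Eprs enters with both Ears2 and Pars2, and Farsa and Farsb share Fars2, so the pairs are not independent.

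The called genes lay both inside and outside the multisynthetase complex. Of the 8 synthetases of the complex, Eprs, Iars and Lars were higher in CM, and those 3 and Dars were lower in CM-JAKi than in CM. Of the 12 synthetases outside it, 4 were higher in CM and 8 lower with the inhibitor. Of all genes tested 4.85% were higher in CM and 8.93% lower with the inhibitor. The median log2 fold change was 0.41 inside and 0.54 outside in CM against MG-CM, and -0.35 and -0.60 in CM-JAKi against CM. A difference between the 2 sets was not tested.

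Among the mitochondrial enzymes, Ears2 and Yars2, for glutamate and tyrosine, had the largest positive estimates in CM. Ears2 counted 7.48, 7.95 and 8.98 CPM in the MG-CM libraries, 10.9, 10.4 and 11.3 in CM and 7.60, 8.11 and 10.3 with the inhibitor. Yars2 counted 18.0, 19.5 and 20.8 CPM in the MG-CM libraries, 26.7, 19.6 and 22.7 in CM and 17.4, 16.8 and 19.0 with the inhibitor. The Ears2 groups CM and MG-CM did not overlap, while those of Yars2 did. Log2 fold changes in CM against MG-CM were 0.42 ± 0.15 and 0.24 ± 0.13 (adjusted p = 0.105 and 0.251), and in CM-JAKi against CM -0.33 ± 0.15 and -0.37 ± 0.13 (adjusted p = 0.152 and 0.069).

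Hars2, for histidine, had the opposite course. Hars2 counted 24.7, 34.1 and 32.1 CPM in the MG-CM libraries, 21.0, 27.3 and 27.9 in CM and 27.4, 35.3 and 34.8 with the inhibitor. Within each replicate number CM was the lowest of the 3 groups, while across numbers the groups overlapped. The log2 fold changes were -0.25 ± 0.16 in CM against MG-CM (adjusted p = 0.356) and 0.36 ± 0.16 in CM-JAKi against CM (adjusted p = 0.162). With the replicate block Hars2 was lower in CM and higher with the inhibitor (adjusted p = 0.0283 and 0.006), Ears2 was higher and then lower (0.0316 and 0.0495), and Yars2 was lower with the inhibitor (0.0418). The block raised the background to 11.6% higher and 12.8% lower in the first comparison and to 18.6% and 15.6% in the second.

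The other mitochondrial genes had estimates of -0.17 to 0.18 in CM against MG-CM and of -0.10 to 0.26 in CM-JAKi against CM. Sars2, Tars2 and Mars2, for serine, threonine and methionine, were among the smaller p values of CM-JAKi against MG-CM, with 0.20 ± 0.15, 0.19 ± 0.17 and -0.12 ± 0.12. Sars2 counted 10.5, 10.8 and 11.9 CPM in the control libraries, 8.48, 10.9 and 12.4 in CM and 11.5, 13.3 and 13.3 with the inhibitor. Tars2 counted 22.1, 30.4 and 31.1, 29.6, 31.3 and 30.2 and 24.4, 35.1 and 35.7 CPM in the same groups, and Mars2 11.5, 11.8 and 13.8, 11.1, 12.2 and 11.1 and 10.6, 12.1 and 11.3. The groups overlapped in all 3.

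Lars2, the mitochondrial leucine enzyme, stood apart in level. It held 0.646% to 2.06% of all counts of a library and was the gene with the most counts in 6 of 9 libraries. Lars2 counted 9456, 11141 and 13684 CPM in the MG-CM libraries, 10792, 6494 and 19908 in CM and 7821, 13150 and 20434 with the inhibitor. Replicate 3 was the highest in every group, and CM replicate 2 was the lowest of the 9. The log2 fold change was 0.12 ± 0.44 in CM against MG-CM (adjusted p = 0.894, 95% interval -0.89 to 1.12) and 0.15 ± 0.44 in CM-JAKi against CM (adjusted p = 0.836), with the widest standard errors of the set.

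Per kilobase of the longest annotated transcript (GENCODE vM21), Lars2 counted 2935 CPM per kb in MG-CM, while the other 15 mitochondrial genes counted 1.09 to 20.2 and the cytosolic genes 23.3 to 95.2. Libraries depleted of ribosomal RNA were sequenced here, and which stretch of the Lars2 transcript the counts come from was not tested, so its level is not read as that of the enzyme's mRNA. With Lars2 left out of the library totals, 7 cytosolic genes were called higher in CM and 12 lower with the inhibitor, as with it.

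On the same per-length scale Gars, Nars and Kars led the cytosolic genes in control medium, at 95.2, 94.9 and 94.3 CPM per kb, followed by Aars at 87.0 and Eprs at 84.1. The lowest were Iars, Wars and Cars, at 25.3, 25.2 and 23.3. In CM, Cars reached 44.0 CPM per kb. The median was 46.9 CPM per kb in the cytosolic genes and 6.94 in the mitochondrial genes without Lars2, and Iars2, at 20.2, was the highest of the latter.

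The estimated size of the response differed between replicate numbers. Each number had 1 library per group, so line, medium source and variation of single libraries cannot be told apart. The median log2 CPM difference of the 20 cytosolic genes between CM and MG-CM was 0.93 in replicate 1, 0.62 in replicate 2 and 0.13 in replicate 3. For CM-JAKi against CM it was -0.91, -0.65 and -0.18. Replicate 1, from PSC4, had the largest rise in 20 of 20 cytosolic genes, against 37.1% of all genes tested, and the largest fall in 20 of 20, against 36.2%. Both counts use the library CM replicate 1. Of the 16 mitochondrial genes, replicate 1 had the highest difference in 7 in the first comparison and the lowest in 13 in the second.

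The replicate numbers also differed within each group. In MG-CM replicate 1 was the lowest library in 19 of 20 cytosolic genes, against 40.2% of all genes, and replicate 3 the highest in 19, against 29.9%. In CM replicate 3 was the lowest in 15, against 31.0%, and replicate 1 the highest in 14, against 38.6%. In CM-JAKi replicate 1 was again the lowest in 18, against 41.0%, and replicate 3 the highest in 19, against 32.4%. Of the 16 mitochondrial genes replicate 1 was the lowest in 13 in MG-CM and in 13 in CM-JAKi, against the same shares of all genes. In CM replicate 1 was the highest in 4 of them and the lowest in 7, against 38.6% and 40.7% of all genes, so no order is read there. These orders were looked for after the values were seen.

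**Figure D4:**
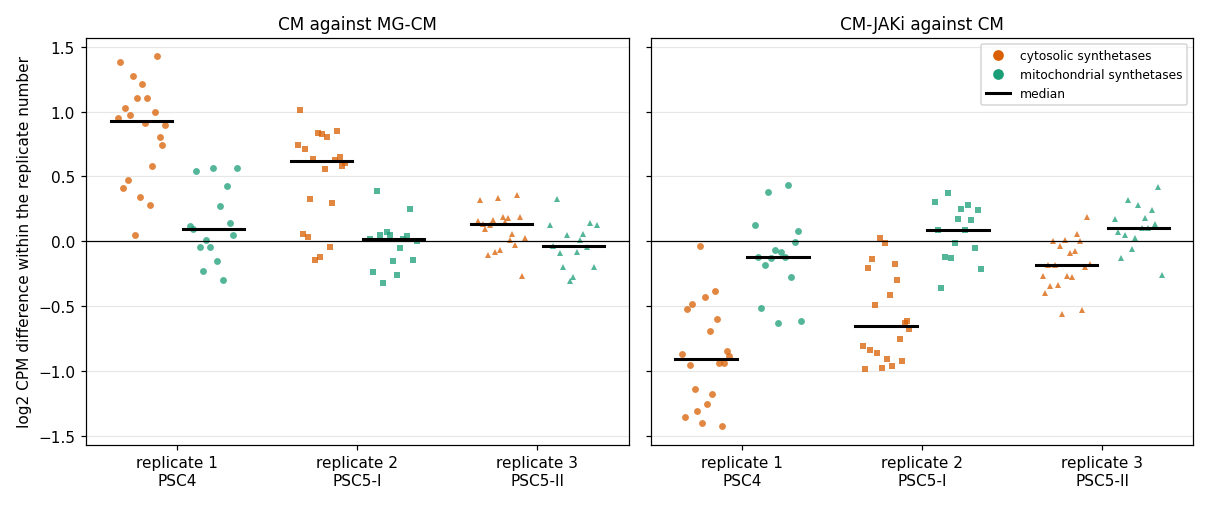
Difference in log2 CPM between libraries of the same replicate number for each synthetase, in CM against MG-CM (left) and CM-JAKi against CM (right). Points are genes, 20 cytosolic and 15 mitochondrial without Lars2, and black lines are medians. The cytosolic median is 0.93, 0.62 and 0.13 in replicates 1, 2 and 3 on the left and -0.91, -0.65 and -0.18 on the right, while the mitochondrial medians lie between -0.12 and 0.10.

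A term for the line, PSC4 against both PSC5 lines, was added to the fit after the data were seen. For the difference in response between lines 0 of the 39 genes were called by edgeR in any comparison, with 16 at an unadjusted p under 0.05 in CM against MG-CM, 12 in CM-JAKi against CM and 0 for the inhibitor against control medium. Over all genes 15.5%, 12.9% and 3.86% had an unadjusted p under 0.05, and 31, 50 and 0 were called, in the same order. The smallest p among the members belonged to Eef1e1 in the first comparison (adjusted p = 0.145) and to Farsb in the second (adjusted p = 0.140). No other tool was run for this term, and PSC4 is represented by 1 library per group.

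Other genes of protein synthesis were read from lists beside the synthetases. Of 30 ATF4 targets and amino acid supply genes 18 rose in CM (median log2 fold change 0.95), against 4.85% of all genes tested. With the inhibitor 23 fell (median -1.01), against 8.93%. Between CM-JAKi and MG-CM 0 of the 30 differed by edgeR, against 1.01% of all genes. In that comparison 2 had an unadjusted p under 0.05, against 10.7%, and DESeq2 called 1, against 3.68%, so nothing is read from these counts. Atf4 itself counted 281, 335 and 352 CPM in the control libraries, 811, 574 and 428 in CM and 349, 333 and 338 with the inhibitor. Its log2 fold changes were 0.91 ± 0.21 and -0.83 ± 0.21 (adjusted p = 0.0288 and 0.0259). Asns, which makes asparagine, rose by 1.41 ± 0.24 and fell by 1.97 ± 0.24, and Trib3, a stress-induced pseudokinase, rose by 2.20 ± 0.40 and fell by 3.02 ± 0.41. As in most cytosolic synthetases, Atf4, Asns, Trib3 and Chac1 were highest in CM replicate 1 and lowest of the CM libraries in replicate 3. Ddit3, of the same list, was highest in CM replicate 2, with 115, 153 and 69.5 CPM in the CM libraries. It was not called in CM against MG-CM (0.62 ± 0.24, edgeR adjusted p = 0.130) and was lower with the inhibitor (-0.83 ± 0.24, adjusted p = 0.0428).

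Of 35 cytosolic translation factors 3 rose in CM, Eif3c, Eif2s2 and Eif1, and these and Eif5 fell with the inhibitor. Of 42 genes for the making, processing and export of tRNA, 1 rose in CM and 4 fell with the inhibitor. Of all genes tested 4.85% rose and 8.93% fell, so nothing is read from the counts of these lists. Xpot, which carries tRNA out of the nucleus, was the gene that did both, at 0.75 ± 0.20 and -0.89 ± 0.20 (adjusted p = 0.0485 and 0.0192). Of 59 genes of mitochondrial translation 0 changed in CM by edgeR, with 2 at an unadjusted p under 0.05 and 1 by DESeq2, and 1, Mrps2, fell with the inhibitor. With the replicate block 5, 2 and 2 genes of these 3 lists were higher and 0, 1 and 1 lower in CM, and 0, 2 and 6 were higher and 7, 6 and 3 lower with the inhibitor, in the order of translation factors, tRNA genes and mitochondrial translation. Medians of the lists in that order were 0.14, 0.04 and 0.01 in CM against MG-CM and -0.20, -0.06 and -0.00251 in CM-JAKi against CM.

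All 20 interferon-stimulated genes tested fell with the inhibitor, against 8.93% of all genes. Of them 11 were lower in CM-JAKi than in MG-CM, against 0.720%, with a median log2 fold change of -1.94 in that comparison. The estimates of the 39 synthetase and scaffold genes in CM-JAKi against MG-CM ran from -0.22 to 0.29, none of them called.

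The promoter matches printed above are read beside these values. TGATGNAA was found in 3.969% of 32851 promoters in the RefSeq table and in 2.343% of the promoters of genes tested. Counted by gene, as for the members, it was found in 4.511% of 27025 genes and in 2.807% of the genes tested with a promoter. Among the members with a promoter in the table it was found in 5 of 13 cytosolic genes, 0 of 3 scaffold genes and 0 of 14 mitochondrial genes, and in 8 of 26 genes of the ATF4 list. Of the cytosolic and scaffold genes with a promoter, 8 were lower in CM-JAKi than in CM and 5 of these held a match, while 8 were not called and 0 of these held one. Aars, Gars, Iars and Tars were also higher in CM. Cars, Lars, Nars and Vars, which changed too, had no promoter in the table. Of the 30 members with a promoter, Aars, Kars, Eef1e1 and Nars2 held the STAT letters TTCNNNGAA, against 9.554% of all genes in the RefSeq table. Qars held the interferon-stimulated response element (ISRE), against 3.993%. Matches of letters are no evidence of binding, and no binding was measured.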

How the data were processed

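Per the labels' protocols, RNA of 9 stellate cell cultures was depleted of ribosomal RNA and made into stranded libraries. RSEM 1.2.29, STAR 2.5.1b, DESeq2 and the builds mm9 and NCBIM37 are named in the submitters' processing notes with no step assigned to any. The values the authors deposited were taken for estimated counts, the expected counts of RSEM in rounded and unscaled form, because every value was whole and RSEM is named. Such counts divide reads between similar genes, and the build differs from that of the sequences printed, so RefSeq coordinates are of GRCm38.p6 and not of the counts.

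The counts were fitted with edgeR 4.0.16 in R 4.3.3 (filterByExpr on the group, minimum count 10 and total 15, TMM, robust quasi-likelihood F-test) over all 9 libraries with a term per group. Genes with a Benjamini-Hochberg adjusted p under 0.05 over the 13613 genes kept were called. Standard errors were derived from the fold change and its F. CPM are counts scaled to the TMM-adjusted library total, and pair differences use log2 CPM with a prior count of 2. The test was tried on counts simulated as independent libraries, without pairing by line or medium source, so nothing about the called genes is read from it. DESeq2 1.42.0, other scalings, no filter, a replicate block and leaving out libraries were the alternatives.

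Libraries of the same replicate number come from 1 stellate line, and those with conditioned medium also from 1 medium source. After removal of group means they correlated across genes at 0.291 to 0.680 in 9 same-number pairs, against -0.536 to 0.279 in 18 others, so the numbers pair the samples.

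The members and gene lists were chosen with earlier results of these data known. Genes were named if called or among the 10 smallest p of the members in a comparison, with Wars, Lars2, Gars, Kars, Eprs, Qars, Farsa, Farsb and the scaffold genes always included. Ears2, Hars2, Sars, Mars, Rars and Hars, and the reference genes Atf4, Asns, Trib3, Chac1 and Ddit3, were added after their values were seen. Some promoter sequence is not reported here.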

Additional observations from a re-analysis of the deposited data

How the results depend on the processing

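No called gene changed direction under any alternative, and the fits with RLE size factors, Lars2 left out of the totals, no low-count filter and robust estimation off stayed within 1.5 times of every count of called members. In CM against MG-CM, 7 cytosolic and scaffold genes were called higher, 4 with library size alone, 13 with DESeq2, 3 with only the 2 groups compared and 0 to 10 with a single library left out. With all of replicate 2 left out the count was 0, with or without the replicate block, and with all of replicate 1 left out under the block it was 2. In CM-JAKi against CM, 12 were lower, 3 to 13 with a single library left out, 0 and 0 without replicate 2, with or without the replicate block, and 7 without replicate 1 under the block. Without replicate 1 under the block, 9.87% of all genes were higher in CM against MG-CM and 14.6% lower in CM-JAKi against CM. The fits that drop a whole replicate number were added after the data were seen.

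The replicate block, used because the numbers pair the samples, called 1 mitochondrial gene higher and 1 lower in CM, and 1 higher and 2 lower with the inhibitor, in place of 0. With replicate 1 left out under the block 2 mitochondrial genes were higher with the inhibitor, with DESeq2 1 was lower, and with a single library left out 0 to 1 were lower. The block changed no other call beyond those given with the genes. Mitochondrial medians in CM against MG-CM were -0.0358 with library size alone and -0.0573 to 0.116 with a single library left out, in CM-JAKi against CM 0.136 and -0.0323 to 0.115, and in CM-JAKi against MG-CM, with a single library left out, -0.0472 to 0.192, where the cytosolic and scaffold median was -0.192 to 0.0190. Over all genes, calls in CM against MG-CM were 660 higher and 734 lower, 1192 and 1294 with DESeq2, 1577 and 1748 with the block and 362 and 431 with only the 2 groups compared. They were 45 and 86 without MG-CM replicate 2, 283 to 702 and 377 to 740 without each other library, and 6 and 2 with all of replicate 2 left out (243 and 237 with the block). For CM-JAKi against CM they were 1369 and 1216, or 2529 and 2126 with the block, 836 and 819 with only the 2 groups compared, 512 and 479 without CM-JAKi replicate 2, 773 to 1317 and 703 to 1300 without each other library, and 76 and 180 with all of replicate 2 left out (764 and 668 with the block). For CM-JAKi against MG-CM they were 39 and 98, or 194 and 310 with DESeq2 and 252 and 327 with the block, and 8 to 67 and 21 to 118 with a single library left out.

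With 3 libraries per group the spread between cultures, not counting error, limits these tests: replicates of a group differed by a chi-square of 15.5 to 113 per degree of freedom. Genes at adjusted p close to 0.05, such as Lars at 0.0496 and Dars at 0.0473, change side with small changes of the fit.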
